A study of Homo sapiens with 4 samples.

Results

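Growth factor receptor kinases are membrane proteins that bind a ligand outside the cell, pair up and phosphorylate each other, and pass the signal to adaptor proteins and from there to the RAS/ERK and PI3K/AKT pathways. In squamous epithelium the EGF receptor and its ligands are best known for driving the growth and repair of the basal layer, and the gene of this receptor is often amplified in esophageal squamous cell carcinoma (ESCC). The genes described here are 56 receptor kinases, ligands, carriers and adaptors of this kind, listed by symbol with earlier results of these data known. Of these, 49 had a probe set with a single gene symbol in the platform annotation, among 14232 genes measured in this way. FGF2, IGF2R, PDGFRA and TYRO3 occurred only in probe sets that carry several symbols, and AREG, PDGFA and EPHB2 were not analysed here.

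The samples were TE-1 cells, an established ESCC line, transfected with siRNA against FOXM1 (TE-1-siFOXM1, 2 arrays) or with a scrambled siRNA (TE-1-SCR, 2 arrays). FOXM1 encodes a forkhead transcription factor known for driving genes of cell division. Both groups were grown in RPMI medium, were transfected with a lipid reagent on consecutive days and were collected a day after the second transfection. All cells came from 1 line, and bulk RNA cannot tell fewer cells with a transcript from less transcript per cell.

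The targeted gene bore out the labels. FOXM1 expression was 8.28 and 8.06 (log2, RMA) in TE-1-siFOXM1 cells and 10.55 and 9.75 in TE-1-SCR cells, a difference of -1.98 (95% interval -2.75 to -1.21) that put the siFOXM1 mean 74.7% below the control mean. Even this difference did not pass limma after adjustment over all probe sets (adjusted p = 1, unadjusted p = 0.00126), and 2 arrays against 2 cannot give a two-sided exact permutation p under 0.333. The median of an array lay between 7.54 and 7.63, and arrays correlated with each other at 0.984 to 0.992. The siFOXM1 replicates correlated at 0.987 and the SCR replicates at 0.985, so the highest value was between arrays of different groups. Epithelial markers were present, with all 7 measured of 11 above the low range, which is defined here as the log2 values up to 6.42, the 95th percentile of 225 olfactory receptor genes. Of other cell types, 3 of 5 endothelial, 4 of 6 fibroblast and 2 of 4 measured immune markers were above that range, while PTPRC of leukocytes (3.50 in TE-1-siFOXM1 and 3.66 in TE-1-SCR cells), PECAM1 of endothelium (4.90 with siFOXM1 and 4.79 with SCR) and LUM of fibroblasts (3.13 with siFOXM1 and 3.08 with SCR) were within it. Others of these markers lay above the median of every array. They were the immune marker CD68 (11.26 with siFOXM1 and 11.09 with SCR), the endothelial CLDN5 (8.12 and 8.05) and the fibroblast COL1A1 (7.84 and 7.73). No marker was 1.5-fold apart between the groups, and the differences of all markers ran from -0.16 to 0.39.

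None of the 49 receptor and ligand genes differed by 1.5-fold between the FOXM1-depleted cells and their controls, the criterion that the methods set for these arrays. That criterion was met by 1.01% of all 14232 genes (0.562% higher and 0.45% lower), so that a count of 0 among 49 lies near the background. Limma called 0 of the 49 at an adjusted p of 0.05 (0% of all probe sets were called) and 0 at an unadjusted p under 0.05, against 1.83% of all genes and 3.09% of all probe sets. No source used here says that the replicates were separate cultures, so these p-values describe the scatter among the 4 arrays, which may be technical. The median difference was -0.04 over the 49 genes and 0.00 over all genes, and the differences of the 49 ran from -0.47 in PDGFC to 0.34 in EREG. Below 0 lay 35 of the 49 genes (71.4%, against 49% of all genes), a number that was 27 when SCR replicate 1 was left out. Leaving out that array also moved the median of all genes, to 0.07, with the median of the 49 at -0.01.
A difference that misses a threshold may still be real, and the 95% intervals give the sizes that these arrays leave possible. For 32 of the 49 genes (65.3%, against 60.9% of all genes) the interval lay within 1.5-fold in both directions. Among them were EGFR, ERBB2, HBEGF, MET, FGFR1, FGFR3, IRS1, VEGFC, DDR1, ROR1 and RYK. For the other 17, which included ERBB3, FGFR2, IGF1R, AXL, EPHA1, EREG and PDGFC, the interval reached past 1.5-fold in at least 1 direction, so that a change of this size was not excluded.

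**Figure D1:**
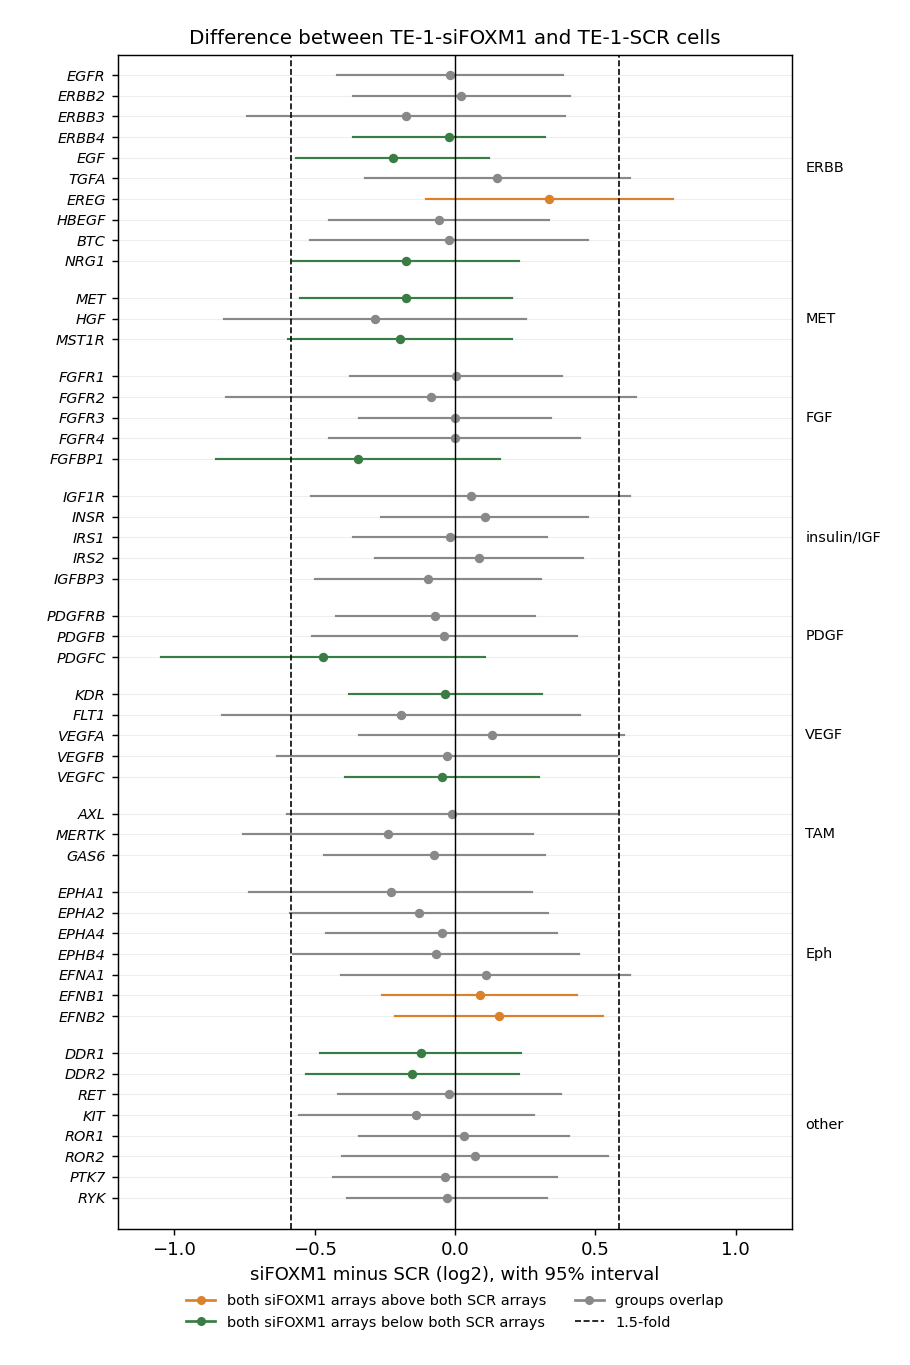
Difference of the mean log2 expression, TE-1-siFOXM1 minus TE-1-SCR, for the 49 measured genes grouped by receptor family, with 95% intervals from limma (2 arrays per group) and dashed lines at 1.5-fold. All points lie between the dashed lines, from -0.47 for PDGFC to 0.34 for EREG, and every interval includes 0.

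The receptors of the ERBB family, through which EGF-like ligands act, had differences between -0.18 and 0.02. EGFR, the receptor of EGF and TGF-alpha, had log2 expression of 11.69 and 11.89 in TE-1-siFOXM1 cells and of 11.73 and 11.89 in TE-1-SCR cells, a difference of -0.02 (standard error 0.16). The groups overlapped, and the interval of this difference, -0.42 to 0.38, allowed a ratio of 0.748 to 1.31. ERBB2, which has no known ligand and serves as a partner of the other receptors, was at 8.92 and 8.97 with siFOXM1 and at 9.03 and 8.82 with SCR (difference 0.02, standard error 0.15). ERBB3, a neuregulin receptor with little kinase activity of its own, was at 7.95 and 7.79 with siFOXM1 and at 8.31 and 7.79 with SCR, a difference of -0.18 (standard error 0.22) that was 0.09 when SCR replicate 1 was left out. ERBB4, the other neuregulin receptor, stayed in the low range on every array, between 4.85 and 4.89.
Of the 6 measured ligands of this family, 4 were above the median of all array values (7.58). EREG, which encodes epiregulin, a ligand of EGFR and ERBB4, had the largest positive difference of the 49 genes, 0.34 (standard error 0.17, 1.26-fold, unadjusted p = 0.107 from limma). It was at 8.46 and 8.20 in TE-1-siFOXM1 cells and at 7.88 and 8.10 in TE-1-SCR cells, with both siFOXM1 arrays above both SCR arrays, and the difference stayed between 0.21 and 0.47 when single arrays were left out. TGFA, the gene of TGF-alpha, was at 9.24 and 8.98 with siFOXM1 and at 9.11 and 8.82 with SCR (difference 0.15, standard error 0.18), with overlap. HBEGF, the heparin-binding ligand of EGFR and ERBB4, was at 8.90 and 9.14 with siFOXM1 and at 9.09 and 9.07 with SCR, a difference of -0.06 (standard error 0.15). NRG1, the neuregulin that binds ERBB3 and ERBB4, was at 8.38 and 8.33 with siFOXM1 and at 8.65 and 8.40 with SCR, a difference of -0.17 (standard error 0.16) without overlap. EGF itself was in the low range, at 5.96 and 5.91 with siFOXM1 and at 6.17 and 6.14 with SCR, and although its replicates lay close together the difference of -0.22 had an unadjusted p of 0.157 in limma. BTC, the gene of betacellulin, was in the low range as well, between 5.38 and 5.77.
FOXM1 binds forkhead motifs, so the promoters were searched for the forkhead core TAAACA and, since mitotic FOXM1 targets carry it, for the cell cycle genes homology region TTTGAA, on both strands. The windows were those of RefSeq on GRCh38.p14, 250 bases before to 50 after the annotated start, and 43 of the 49 genes had one. TAAACA occurred in 3 of the 43 (6.98%, against 8.55% of 11386 promoters of measured genes), namely BTC, HGF and IGF1R, and TTTGAA in 2 (4.65%, against 11.7%), namely EGF and DDR2, with no overlap between the motifs. A match is a run of letters and not a site, and the start used in TE-1 cells may differ from the annotated one. The authors cite a wider forkhead motif, RYAAAYA (R for A or G, Y for C or T). Its other forms, such as those with CAAACA or TAAATA, were not searched for. The stretches are shown for EREG, as the gene with the largest positive difference, and for BTC, as the ERBB ligand with a forkhead core, whose letters are in capitals. EREG lies at chr4:74365025-74365144 on the plus strand, the 120 bases just before the start, and holds neither motif. BTC lies at chr4:74794709-74794773 on the minus strand, and its core, on the strand opposite to the gene, begins 231 bases before the start.
EREG: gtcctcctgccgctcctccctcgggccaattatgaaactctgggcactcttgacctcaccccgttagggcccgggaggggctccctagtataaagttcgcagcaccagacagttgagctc
BTC: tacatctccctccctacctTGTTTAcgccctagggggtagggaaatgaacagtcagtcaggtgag

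MET and MST1R, the receptors of hepatocyte growth factor and of macrophage-stimulating protein, each lay slightly lower on both siFOXM1 arrays than on both SCR arrays. MET, which drives the scattering of epithelial cells, was at 11.35 and 11.54 with siFOXM1 and at 11.65 and 11.59 with SCR, a difference of -0.17 (standard error 0.15). MST1R, also known as RON, was at 8.68 and 8.58 with siFOXM1 and at 8.94 and 8.71 with SCR (difference -0.20, standard error 0.15). Over all genes, 13.8% had both siFOXM1 arrays below both SCR arrays, and in both receptors the larger gap between replicates of 1 group exceeded the difference between the groups. The ligand gene HGF, which is made mainly by mesenchymal cells, was in the low range, at 3.65 and 4.07 with siFOXM1 and at 4.29 and 4.001 with SCR.
HGF is the gene of this family whose promoter holds a forkhead core, on the strand of the gene and beginning 111 bases before the start (minus strand, chr7:81770113-81770198, core in capitals).
HGF: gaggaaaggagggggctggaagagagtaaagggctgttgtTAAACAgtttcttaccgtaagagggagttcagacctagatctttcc
At this low level its difference of -0.28 (standard error 0.21) ranged from -0.49 to -0.08 when single arrays were left out.

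All 4 FGF receptors were above the array median and none differed by more than 0.09. FGFR1, a receptor of many FGFs, was at 8.56 and 8.75 in TE-1-siFOXM1 cells and at 8.62 and 8.68 in TE-1-SCR cells (difference 0.00, standard error 0.15). FGFR3 was the steadiest of the 4, at 8.02 and 8.06 with siFOXM1 and at 8.04 and 8.05 with SCR (difference 0.00, interval -0.34 to 0.34). FGFR4 was at 7.70 and 7.55 with siFOXM1 and at 7.79 and 7.47 with SCR, with a difference of -0.00 (standard error 0.17). FGFR2, whose epithelial form responds to the keratinocyte growth factor FGF7, was at 8.20 and 7.90 with siFOXM1 and at 8.49 and 7.78 with SCR. The gap of 0.72 between its SCR replicates was the largest among the 49 genes, which left its difference of -0.09 with an interval of -0.82 to 0.65.
FGFBP1, a secreted carrier that releases FGFs from the matrix and is typical of squamous epithelium, had the second most negative difference, -0.35 (standard error 0.20, 1.27-fold, unadjusted p = 0.138 from limma). It was at 6.39 and 6.13 with siFOXM1 and at 6.79 and 6.43 with SCR, just around the upper edge of the low range. Both siFOXM1 arrays were below both SCR arrays, and leaving out SCR replicate 1 gave -0.16, whereas leaving out SCR replicate 2 gave -0.53. The last 120 bases before its annotated start (minus strand, chr4:15938741-15938860), shown because this gene had the most negative difference among those with a promoter window, hold neither of the motifs.
FGFBP1: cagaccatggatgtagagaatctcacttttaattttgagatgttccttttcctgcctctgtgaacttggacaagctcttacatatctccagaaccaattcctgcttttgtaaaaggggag

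The insulin and IGF receptors and their adaptors lay close together between the groups, with differences from -0.10 to 0.11. IGF1R, the receptor of IGF1 and IGF2, was at 11.09 and 11.51 in TE-1-siFOXM1 cells and at 11.07 and 11.41 in TE-1-SCR cells (difference 0.06, standard error 0.22). Here the replicates of a group differed far more than the groups did, and a further probe set of the same gene, at 8.29 and 8.37 with siFOXM1 and at 8.23 and 8.16 with SCR, gave 0.13 (standard error 0.14). INSR, the insulin receptor, was below the array median, at 7.25 and 7.33 with siFOXM1 and at 7.25 and 7.11 with SCR (difference 0.11, standard error 0.14). IRS1 and IRS2 are the adaptors through which these receptors recruit PI3K. IRS1 was at 8.35 and 8.30 with siFOXM1 and at 8.37 and 8.32 with SCR, a difference of -0.02 with an interval of -0.36 to 0.33. IRS2 was at 8.60 and 8.58 with siFOXM1 and at 8.42 and 8.59 with SCR (difference 0.09, standard error 0.14). IGFBP3, the main carrier of IGFs in blood, was at 8.90 and 9.06 with siFOXM1 and at 9.18 and 8.98 with SCR, a difference of -0.10 (standard error 0.16).

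The PDGF family held the most negative difference of the 49 genes, that of the ligand gene PDGFC. PDGFC, whose product must be cleaved before it binds its receptor, was at 7.47 and 7.18 in TE-1-siFOXM1 cells (7.32 ± 0.20, SD, n = 2) and at 8.03 and 7.55 in TE-1-SCR cells (7.79 ± 0.34, SD, n = 2). The groups did not overlap, and the difference was -0.47 (1.39-fold lower, standard error 0.22, interval -1.05 to 0.11, unadjusted p = 0.0896 and adjusted p = 1 from limma). The size of this difference, though not its sign, depended on single arrays. Leaving out siFOXM1 replicate 1 gave -0.62 and leaving out SCR replicate 2 gave -0.71, both past 1.5-fold. Leaving out siFOXM1 replicate 2 gave -0.33, and the value was -0.23 when SCR replicate 1 was dropped. Replicate 1 was above replicate 2 in both groups, and leaving out 1 array leaves such a shared deviation unbalanced. Between same-numbered arrays PDGFC differed by -0.57 (replicate 1) and -0.38 (replicate 2). PDGFB, the ligand that platelets and endothelium are known for, was at 7.69 and 7.90 with siFOXM1 and at 7.67 and 7.997 with SCR (difference -0.04, standard error 0.18). PDGFRB, a receptor typical of pericytes and fibroblasts, was below the array median on all arrays, between 7.12 and 7.28, with a difference of -0.07.

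Among the VEGF genes the ligands were above the array median, and both measured receptors were dim. VEGFA, the main angiogenic factor and a gene known to be raised by hypoxia, was at 9.43 and 9.19 in TE-1-siFOXM1 cells and at 9.33 and 9.03 in TE-1-SCR cells (difference 0.13, standard error 0.18). VEGFB was at 9.15 and 8.70 with siFOXM1 and at 9.16 and 8.75 with SCR, so that its replicates lay apart and its groups did not (difference -0.03, standard error 0.23). VEGFC, which acts on lymphatic vessels, was at 8.996 and 8.93 with siFOXM1 and at 9.02 and 9.005 with SCR. Its groups did not overlap, but the difference was only -0.05, with an interval of -0.39 to 0.30. KDR and FLT1, the VEGF receptors of blood vessels, were in the low range by the mean of the 4 arrays, KDR between 5.35 and 5.41 and FLT1 between 6.01 and 6.62, with differences of -0.03 and -0.19.

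AXL, a receptor kinase that binds GAS6 and is known for marking invasive carcinoma cells, was at 10.9997 and 10.75 in TE-1-siFOXM1 cells and at 11.14 and 10.62 in TE-1-SCR cells. The difference was -0.01 with a standard error of 0.23, since the SCR replicates alone were 0.52 apart. Its ligand gene GAS6 was at 9.33 and 9.30 with siFOXM1 and at 9.51 and 9.27 with SCR (difference -0.07, standard error 0.15). MERTK, a relative of AXL best known for the clearance of dead cells by macrophages, lay near the edge of the low range, between 6.18 and 6.75, with a difference of -0.24 and overlap.

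The Eph receptors bind ephrins on neighbouring cells and sort cells at tissue borders. The differences of the 4 measured receptors and 3 ephrin genes ran from -0.23 to 0.16, and none passed the test. The signs of 4 of the 7 changed when single arrays were left out. Values reached 0.06 for EPHA2, 0.09 for EPHB4 and 0.07 for EPHA4, and -0.10 for EFNA1. Same-numbered arrays deviated together, and leaving out 1 array leaves such a shared deviation unbalanced. Between same-numbered arrays (replicate 1, then 2) EPHB4 differed by -0.07 and -0.07 and EFNA1 by 0.22 and 0.003. The sign changed between the 2 numbers for EPHA2 (-0.32 and 0.06) and EPHA4 (0.01 and -0.10). EPHA2, the main Eph receptor of epithelium, was at 10.42 on both siFOXM1 arrays and at 10.74 and 10.37 in TE-1-SCR cells (difference -0.13, standard error 0.18). EPHB4 was at 10.03 and 9.70 with siFOXM1 and at 10.09 and 9.77 with SCR, a difference of -0.07 (standard error 0.20), and EPHA4 was at 8.42 and 8.55 with siFOXM1 and at 8.41 and 8.66 with SCR (difference -0.05, standard error 0.16). EPHA1 was at 8.20 and 7.97 with siFOXM1 and at 8.51 and 8.12 with SCR, where the difference of -0.23 (standard error 0.19) was smaller than the gap of 0.39 between the SCR replicates. EFNB2, the ephrin that binds EPHB4, was at 10.20 and 10.33 with siFOXM1 and at 10.05 and 10.17 with SCR, a difference of 0.16 (standard error 0.14) without overlap. EFNB1 was at 8.94 and 8.92 with siFOXM1 and at 8.88 and 8.80 with SCR, without overlap but with a difference of 0.09 (standard error 0.13). EFNA1, a ligand of EPHA2, was at 8.77 and 8.35 with siFOXM1 and at 8.55 and 8.34 with SCR (difference 0.11, standard error 0.20). In EFNA1 the groups overlapped.

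**Figure D2:**
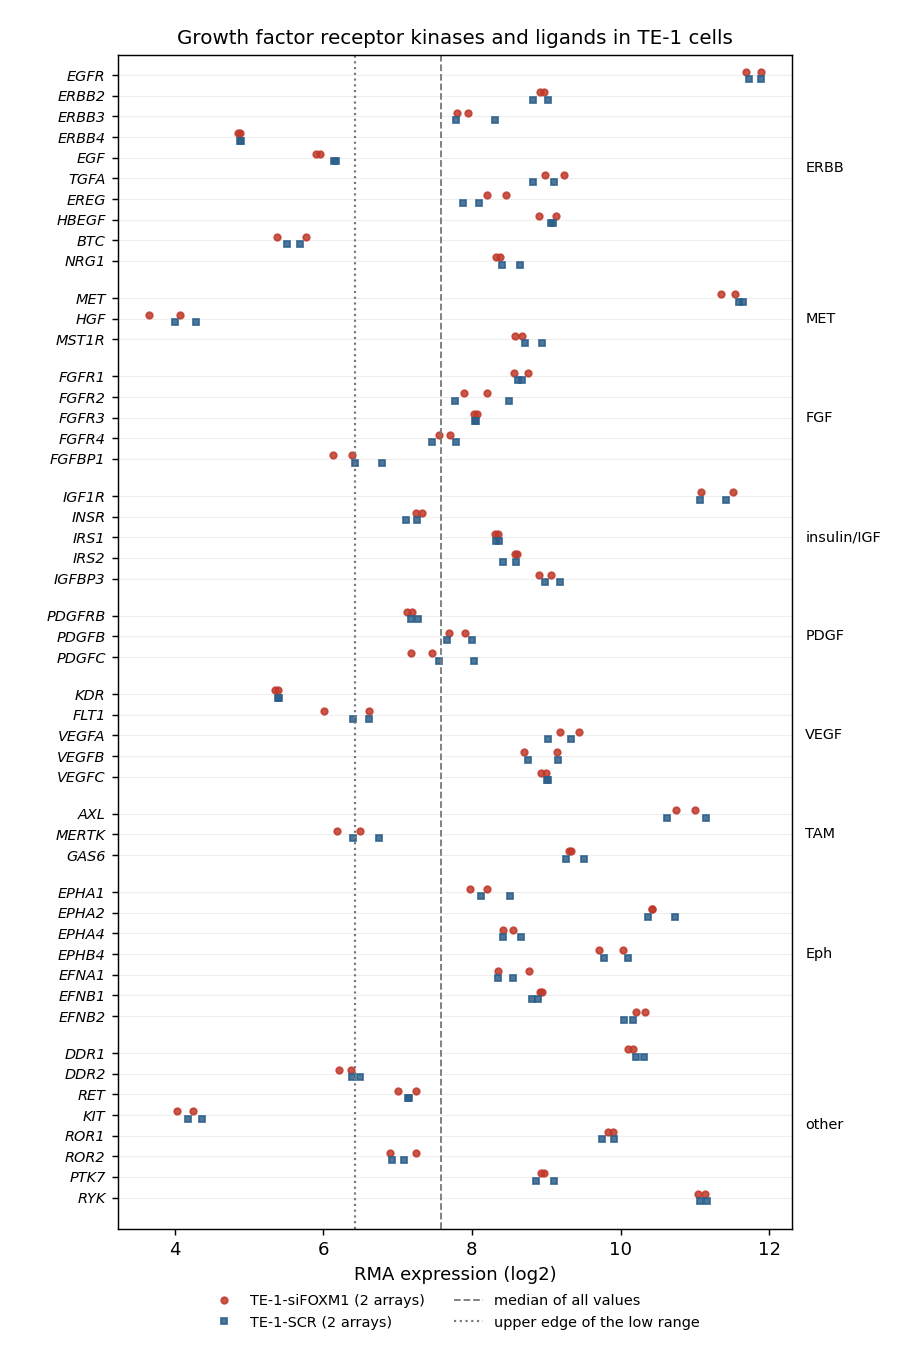
RMA expression (log2) of the 49 genes on each array, with circles for the 2 TE-1-siFOXM1 arrays and squares for the 2 TE-1-SCR arrays, and lines at the median of all values (7.58) and at the upper edge of the low range (6.42). The groups overlap in 35 of the 49 genes and do not overlap in 14. ERBB4, EGF, BTC, HGF, KDR, FLT1, DDR2 and KIT have means over the 4 arrays within the low range.

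The remaining receptors included kinases that bind collagen or Wnt proteins. DDR1, the collagen receptor of epithelial cells, was at 10.10 and 10.17 in TE-1-siFOXM1 cells and at 10.32 and 10.20 in TE-1-SCR cells, a difference of -0.12 (standard error 0.14) without overlap. DDR2, its counterpart in fibroblasts, lay around the upper edge of the low range, with the mean of the 4 arrays just within it, at 6.37 and 6.21 with siFOXM1 and at 6.50 and 6.39 with SCR, a difference of -0.15 without overlap. RYK, a Wnt receptor without kinase activity, was at 11.13 and 11.04 with siFOXM1 and at 11.16 and 11.07 with SCR (difference -0.03, interval -0.39 to 0.33). ROR1, a receptor of WNT5A, was at 9.90 and 9.83 with siFOXM1 and at 9.92 and 9.74 with SCR (difference 0.03, standard error 0.14). PTK7, a pseudokinase of planar cell polarity, was at 8.93 and 8.96 with siFOXM1 and at 9.11 and 8.86 with SCR, a difference of -0.04 (standard error 0.15). ROR2 and RET were below the array median, ROR2 between 6.89 and 7.25 and RET, the GDNF receptor, between 7.002 and 7.25, with differences of 0.07 and -0.02. KIT, the receptor of stem cell factor, was in the low range, between 4.03 and 4.37. Probe sets differ in brightness for the same amount of transcript, so the levels of different genes were not ranked against each other.

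The difference between the groups was smaller than the larger gap between replicates of a group for 44 of the 49 genes (89.8%, against 82.7% of all genes). The other 5 were EGF, EREG, EFNB1, EFNB2 and DDR1, with differences of -0.22, 0.34, 0.09, 0.16 and -0.12. No overlap between the groups was found for 14 of the 49 (28.6%, against 27.3% of all genes), with both siFOXM1 arrays below in 11 and above in 3. The 3 above were EREG, EFNB1 and EFNB2, all ligands, and over all genes 13.5% had this order. The 11 below were the receptors MET, MST1R, ERBB4, KDR, DDR1 and DDR2, the ligands EGF, NRG1, PDGFC and VEGFC, and the carrier FGFBP1. Over all genes 13.8% had both siFOXM1 arrays below. The share without overlap in either direction lay near that of all genes, so that share is no result about these genes. The split between below and above was more uneven than over all genes and was not tested.

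**Figure D3:**
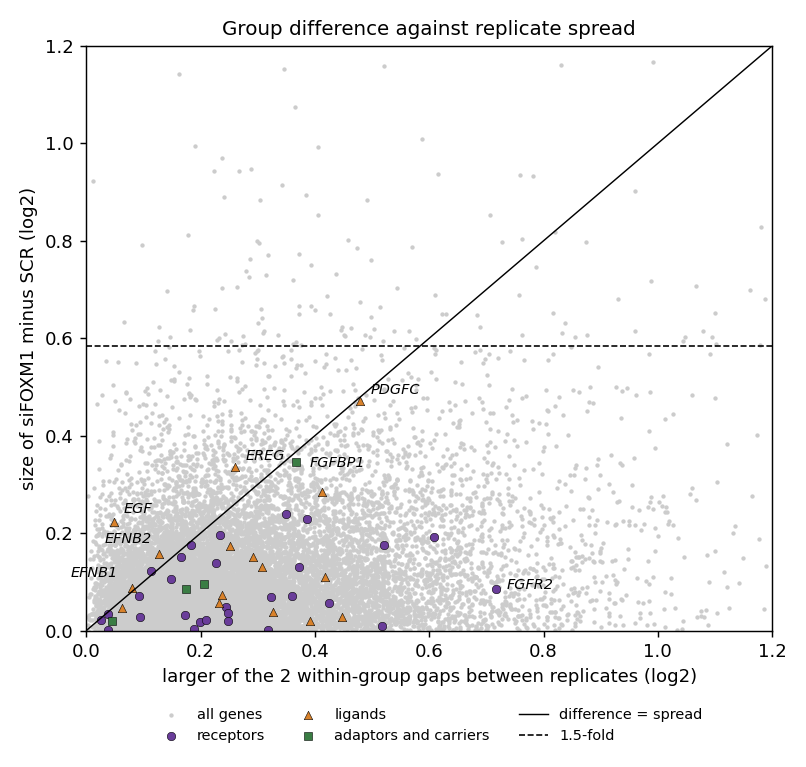
Size of the difference between the siFOXM1 and the SCR arrays (log2, vertical) against the larger of the 2 gaps between replicates of a group (log2, horizontal), for the 49 genes by role over all genes in grey (69 genes lie outside the plotted range). Of the 49, 44 lie below the line of equality, and FGFR2 has the widest gap between replicates (0.72).

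Signal relays that act just below the receptors, a list of 42 adaptors, brakes, sheddases and kinases from GRB2 to ERK, were measured for 28 genes. None was 1.5-fold higher or lower, none passed an adjusted p of 0.05 in limma and none had an unadjusted p under 0.05. Over all genes these shares were 1.01%, 0% and 1.83%, so that counts of 0 among 28 lie near the background. The median of the 28 differences was 0.08 (0.00 over all genes). Without SCR replicate 2 it was -0.06, and that of all genes was -0.07. NCK1, an adaptor that links receptors to the actin skeleton, had the largest positive difference, 0.26 (9.44 and 9.10 with siFOXM1, 9.01 on both SCR arrays), and the SRC-family kinase YES1 followed with 0.23. The most negative were GAB1, a docking protein of MET and EGFR, with -0.24 (8.79 and 8.60 with siFOXM1, 8.91 and 8.96 with SCR), and LRIG1, which lowers the level of ERBB receptors, with -0.23.
A further list of 80 receptors and ligands outside the 56 was measured for 68 genes. Of these, 0 were 1.5-fold apart and 0 passed limma, at an adjusted p of 0.05 or an unadjusted p under 0.05. Against the shares of all genes (1.01%, 0% and 1.83%) these counts lie near the background as well. Their median was -0.03. The ephrin gene EFNA2 (0.32, 7.71 and 7.60 with siFOXM1 against 7.40 and 7.26 with SCR) and IGFBP4, an inhibitory carrier of IGFs (0.29, 10.48 and 10.29 with siFOXM1 against 10.08 and 10.10 with SCR), had the largest positive differences. EPHA6 (-0.33) and FGF17 (-0.31) had the most negative, at means in or close to the low range. The larger gap between replicates of a group exceeded the difference between the groups for 24 of the 28 relay genes (85.7%) and 53 of these 68 genes (77.9%). Over all genes the share was 82.7%, so these counts are no result about the lists. No overlap between the groups was found for 8 of the 28 (28.6%) and 26 of the 68 (38.2%). Over all genes this share was 27.3%, and the contrast was not tested.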

How the data were processed

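Gene expression was measured in 4 Affymetrix arrays of TE-1 cells, 2 per group, with groups and replicate numbers taken from the sample titles. The authors normalized the arrays by RMA in Affymetrix Expression Console and deposited them as log2 expression, a value for each probe set on each array. The processing notes name the build hg18 and no versions. All 4 columns were used, and for arrays their number limits the precision.
Probe sets were named by the platform annotation, and a gene took its probe set with 1 symbol and the highest mean. All 22011 probe sets were fitted with limma (version 3.58.1, R 4.3.3) on siFOXM1 minus SCR, without a replicate term, with Benjamini-Hochberg adjustment over all of them. The moderated test had 4.87 degrees of freedom, and the fit was tested on simulated data. Intervals are 95% intervals of a single difference, not adjusted for the number of genes. The 1.5-fold criterion of the methods was applied to the difference of the log2 means.
The named genes were all measured members, the 2 largest increases and decreases of each further list, and FOXM1. The members and the lists were chosen with earlier results of these data known. Alternatives were a replicate block, array centring, quantile normalization, a filter on low values, a variance trend, the mean of probe sets, linear means, a 2-fold criterion and leaving out each array.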

Additional observations from a re-analysis of the deposited data

How the results depend on the processing

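The genes at least 1.5-fold apart, 144 in all, numbered from 215 to 445 when each array was left out, 50 when probe sets below the median level were dropped and 15 at a 2-fold criterion. Members without overlap, 14 in all, numbered 29 to 37 with an array left out, where a lone array overlaps less often by construction, and 8 after the filter, which kept 34 members. At least 1.5-fold lower were 0 to 1 members with an array left out (PDGFC without siFOXM1 replicate 1 or SCR replicate 2), and 0 were higher. FOXM1 stayed between -2.38 and -1.58. The median of the members lay between -0.08 and -0.01 with an array left out, while that of all genes lay between -0.07 and 0.07. The variance of a group left with 1 array was taken from the other group. After adjustment limma called 0 members and 0 probe sets under any alternative that gave a test. The sample titles do not say what the shared replicate numbers stand for. Same-numbered arrays deviated together (correlation 0.474 across all genes and 0.644 across members, which are not independent). The replicate block left the member median at -0.04 and called 0 members and 0 probe sets. Sign changes among the 49 members numbered 0 to 2 under the other settings and 6 to 18 with an array left out. Leaving out 1 array leaves a deviation shared by same-numbered arrays unbalanced. Between same-numbered arrays the differences had the same sign in 25 of the 49 members and opposite signs in 24.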
